A study of Homo sapiens with 6 samples.

Results

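The collagen genes of Ewing sarcoma cells were followed across 3 groups of RNA-seq libraries. They were chosen by name, as every gene of the deposited count table whose symbol is COL, digits, A and digits, which gave 42 of 22604 genes. The cells were SKNMC, an established Ewing sarcoma line, with 2 libraries per group. They carried a V5-tagged vector for wild-type NFIB (NFIB WT), a V5-tagged vector for NFIB without its intrinsically disordered region (NFIB ΔIDR), or an empty expression vector (EV). All 3 groups, EV included, express EWS-FLI1 and, per the methods of the study, were infected with lentivirus and selected with puromycin. The coding sequence came from cDNA of another line, NCI-H446, and reads of the construct and of the endogenous NFIB gene are counted together. The comparisons ask what NFIB does to the transcriptome of these cells, and what it does without its disordered region. The study describes its RNA-seq as done in biological duplicate, and p values measure the spread between these libraries.

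Collagens are secreted or membrane-bound proteins in which 3 alpha chains, each the product of its own gene or of the same gene, wind into a helix. Fibrillar collagens form the banded fibrils of skin, bone and cartilage, and FACIT collagens (fibril-associated collagens with interrupted helices) sit on the surface of those fibrils. Type IV collagen makes the network of basement membranes, multiplexins lie beside it, transmembrane collagens stay anchored in the plasma membrane, and type VI collagen forms beaded filaments around cells. Ewing sarcoma is a bone and soft tissue tumor whose cells are thought to be close to mesenchymal progenitors, which make many of these chains. NFIB is a transcription factor of the nuclear factor I family, which binds the core TTGGC, most strongly as the inverted repeat TTGGC, 5 bases, GCCAA.

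The libraries held between 6664231 and 8465572 counts, and the collagen genes took 0.0908% to 0.104% of them. Levels are given as CPM (counts scaled to a common library total) after TMM scaling, as values of each library or as a mean with its SD, and 1 CPM stood for 6.67 counts in the shallowest library. Differences are log2 fold changes from the quasi-likelihood test of edgeR with Benjamini-Hochberg adjustment over 13501 tested genes, and a gene was called at an adjusted p under 0.05. NFIB itself had 969 and 1051 CPM in NFIB WT cells, 2227 and 2332 CPM in NFIB ΔIDR cells and 175.7 and 144.6 CPM in EV cells. Its log2 fold change between the constructs, NFIB WT over NFIB ΔIDR, was -1.17 (SE 0.10 and edgeR adjusted p = 0.000191), so the missing region and the higher RNA level of NFIB ΔIDR cannot be told apart in that comparison. In the pair of NFIB WT libraries the spread was wider than in the others, with an SD of the log2 difference across genes of 0.376, against 0.279 for NFIB ΔIDR and 0.281 for EV. Of the 29 tested collagens, 21 were higher in replicate 2 of NFIB WT than in replicate 1 (median log2 difference 0.22, next to 0.00 over all genes). The same median was -0.09 between the NFIB ΔIDR libraries and -0.07 between the EV libraries.

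Of the 42 collagen genes, 29 had enough reads to be tested and 13 did not. The untested were COL2A1, the main chain of cartilage fibrils, COL5A3, COL9A1, COL9A2, COL20A1, COL22A1, COL4A6, COL15A1, COL17A1, COL6A5, COL8A1, COL26A1 and COL28A1. COL2A1 had between 1 and 5 counts in every library, and COL20A1 had 1 count in all 6 libraries together. COL8A1 had the most among the untested, with 48 counts over the 6 libraries. COL11A1 and COL6A3 passed the filter on low counts only through the NFIB ΔIDR libraries and COL8A2 only through the EV libraries, so for these genes a difference was part of what let them in. COL11A2 and COL23A1 were not analysed here.

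A few chains dominated. Per kilobase of gene model, COL5A2, which encodes the alpha 2 chain of the fibril-nucleating type V collagen, stood highest in each library, at 45.2 ± 0.515 CPM per kb in NFIB WT cells, 45.1 ± 0.533 in NFIB ΔIDR cells and 41.4 ± 0.0932 in EV cells (SD, n = 2 each). COL3A1, the only chain of type III collagen, came next at 25.7 ± 2.97 CPM per kb in NFIB WT cells, 19.3 ± 0.0996 in NFIB ΔIDR cells and 18.3 ± 1.58 in EV cells. COL16A1, COL1A2, COL4A1 and COL4A2 followed in each group. Their order depended on the group.

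With NFIB WT, COL16A1 (14.6 and 19.7 CPM per kb) and COL1A2 (15.02 and 16.59) overlapped and both lay above COL4A1 (12.4 and 12.9). With NFIB ΔIDR, COL1A2 (10.5 and 11.7) came before COL4A1 (9.89 and 10.2), COL16A1 (8.55 and 8.80) and COL4A2 (7.08 and 7.56), with no overlap between neighbours. With EV, COL1A2 (14.4 and 12.7) and COL4A1 (13.4 and 12.8) overlapped, and so did COL16A1 (11.8 and 10.7) and COL4A2 (10.6 and 10.9). COL16A1, a FACIT collagen, thus stood above COL4A1 in NFIB WT cells and below it in both other groups.

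Summed over all members, collagen RNA came to 1006 ± 63.5 CPM in NFIB WT cells, 908 ± 2.83 CPM in NFIB ΔIDR cells and 931 ± 12.0 CPM in EV cells (SD, n = 2 each). No test was made on the sums. The 10 fibrillar genes made up more than any other class, at 579 ± 23.4 CPM in NFIB WT cells, 538 ± 5.90 CPM in NFIB ΔIDR cells and 509 ± 0.916 CPM in EV cells. The 6 genes of basement membrane collagen came to 157 and 184 CPM in NFIB WT cells, 131 and 135 CPM in NFIB ΔIDR cells and 182 and 176 CPM in EV cells, so that both NFIB ΔIDR libraries lay below all 4 others. Most of this sum came from COL4A1 and COL4A2, with means of 74.9 and 47.3 CPM in NFIB ΔIDR cells. The means of COL4A3 and COL4A4 were higher in NFIB ΔIDR than in EV cells and that of COL4A5 was lower, all without a call. The 10 FACIT genes came to 162 and 189 CPM in NFIB WT cells, 156 and 148 CPM in NFIB ΔIDR cells and 169 and 153 CPM in EV cells, so that EV overlapped both constructs. The 3 transmembrane genes (37.8 ± 0.437, 38.6 ± 1.81 and 36.6 ± 2.63 CPM, in the same order of groups) and the 5 type VI genes (29.6 ± 2.60, 33.0 ± 2.76 and 31.1 ± 1.32 CPM) overlapped between all 3 groups.

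**Figure D1:**
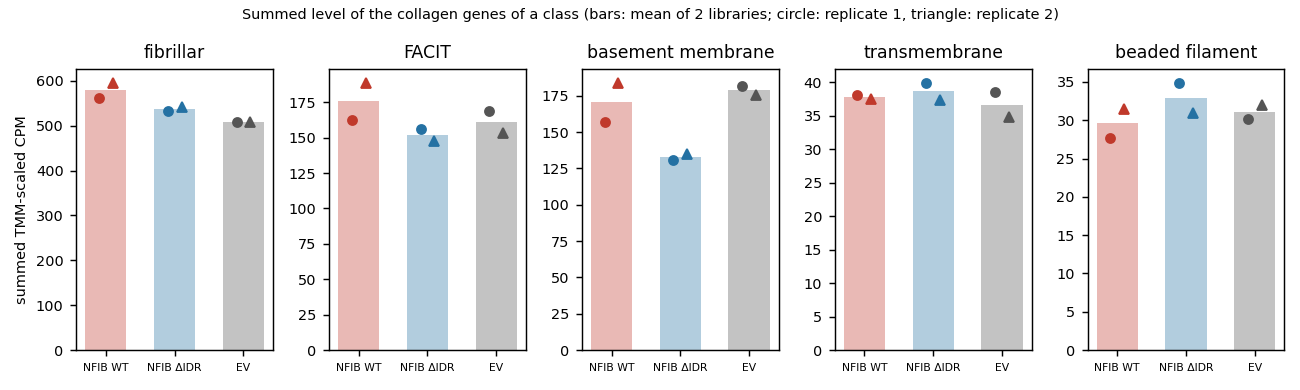
Summed level of the collagen genes of 5 classes in TMM-scaled CPM (vertical axis, from 0) with NFIB WT, NFIB ΔIDR and EV; bars are means of 2 libraries, circles replicate 1 and triangles replicate 2. The basement membrane sum is 131 and 135 CPM in NFIB ΔIDR cells, below the 157 and 184 CPM in NFIB WT cells and the 182 and 176 CPM in EV cells.

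With NFIB WT against EV, a single collagen passed the test, and it was lower. This was COL14A1, a FACIT collagen that binds fibrils through decorin and helps to set their diameter. It is 1 of 29 tested collagens, where 0.615% of all tested genes were called (0.163% as lower). COL14A1 had 16.5 and 17.8 CPM in NFIB WT cells, 34.1 and 30.9 CPM in NFIB ΔIDR cells and 38.2 and 36.9 CPM in EV cells. Both NFIB WT libraries lay below the other 4, and the NFIB ΔIDR libraries lay below the EV libraries by a smaller margin. The log2 fold change against EV was -1.13 in NFIB WT cells (SE 0.12 and edgeR adjusted p = 0.00200) and -0.21 in NFIB ΔIDR cells (SE 0.11 and adjusted p = 0.415). The direct difference of NFIB WT from NFIB ΔIDR was -0.92 (SE 0.12 and adjusted p = 0.00189). Without EV replicate 1 the adjusted p of NFIB WT against EV was 0.0626, and it passed under the other 14 of 15 alternative settings, with log2 fold changes from -1.18 to -1.08.

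The other 28 tested collagens had log2 fold changes between -1.23 (COL11A1) and 0.61 (COL16A1) with NFIB WT against EV, and none of them was called. Their adjusted p values began at 0.077, for COL3A1 and COL16A1. COL3A1, a fibrillar collagen of skin, vessels and soft organs, had 129.6 and 152.6 CPM in NFIB WT cells and 94.5 and 106.7 CPM in EV cells (log2 fold change 0.49 with SE 0.11, edgeR adjusted p = 0.0767). COL16A1 had 81.4 and 110.2 CPM in NFIB WT cells and 66.1 and 59.5 CPM in EV cells (log2 fold change 0.61, SE 0.14 and adjusted p = 0.0767). For both genes the NFIB WT libraries lay above the EV libraries, as they lay above or below them for 42.9% of all tested genes. Both were called without NFIB WT replicate 1 and without NFIB WT replicate 2, when the lone NFIB WT library was taken to vary like the other groups. In these fits 4 and 5 of 31 tested collagens passed, where 3.68% and 21.9% of all tested genes did. At a change of 1.5-fold or more with an unadjusted p under 0.05, thresholds of the kind the study used, COL16A1 was higher and COL14A1 and COL8A2 were lower (3 of 29, where 3.88% of all tested genes passed). COL8A2 entered the test through the EV libraries alone.

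With NFIB ΔIDR against EV, no collagen passed the test of edgeR at an adjusted p under 0.05 (0 of 29, where 0.652% of all tested genes were called). DESeq2 also called 0, but gave an adjusted p to only 19 collagens, and called 0.89% of the 10333 genes it tested. At an unadjusted p under 0.05 there were 12 of 29, where 15.2% of all tested genes passed. At a change of 1.5-fold or more with an unadjusted p under 0.05, COL1A1, COL11A1 and COL6A3 were higher and COL8A2 was lower (4 of 29, where 4.77% of all tested genes passed), and all of these but COL1A1 entered the test through the group in which they were higher. The smallest adjusted p was that of COL4A1 (0.0902). The count depended on the NFIB WT libraries, which share the estimate of the spread. Without NFIB WT replicate 1, without NFIB WT replicate 2 and in a fit of NFIB ΔIDR and EV alone, 9 collagens were called, of 31, 31 and 28 tested. Of all tested genes, 13.2%, 13.3% and 14.2% were called in these fits. COL24A1, COL11A1, COL6A3, COL19A1 and COL5A1 were then higher with NFIB ΔIDR, and COL16A1, COL1A2, COL4A1 and COL4A2 were lower.

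Between the constructs, 10 of 29 tested collagens were called (34.5%, where 10.7% of all tested genes were called). COL16A1, COL1A2, COL3A1 and COL4A1 were higher in NFIB WT than in NFIB ΔIDR cells (4 of 29, next to 5.52% of all tested genes). COL11A1, COL6A3, COL1A1, COL24A1, COL14A1 and COL21A1 were lower (6 of 29, next to 5.19%). COL11A1 and COL6A3 had to differ to be tested, as said above. Without the 3 collagens that entered through 1 group alone, 8 of 26 were called, 4 higher and 4 lower, where 10.5% of all genes were called after the same step, which was added after seeing the data. By class, 5 of 8 tested fibrillar genes, 3 of 6 FACIT genes and 1 of 5 basement membrane genes were called. So was 1 of 4 type VI genes (COL6A3), and neither of the 2 tested transmembrane genes was. These counts include COL11A1 among the fibrillar genes and COL6A3, which entered the test through the NFIB ΔIDR libraries alone. The 4 higher genes were among the 6 most abundant collagens per kilobase, with mean levels of at least 85.5 CPM in NFIB WT cells and 48.5 CPM in NFIB ΔIDR cells. The 6 lower genes had at most 32.5 CPM in either group. The median over the tested collagens was -0.03, next to 0.00 over all tested genes.

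**Figure D2:**
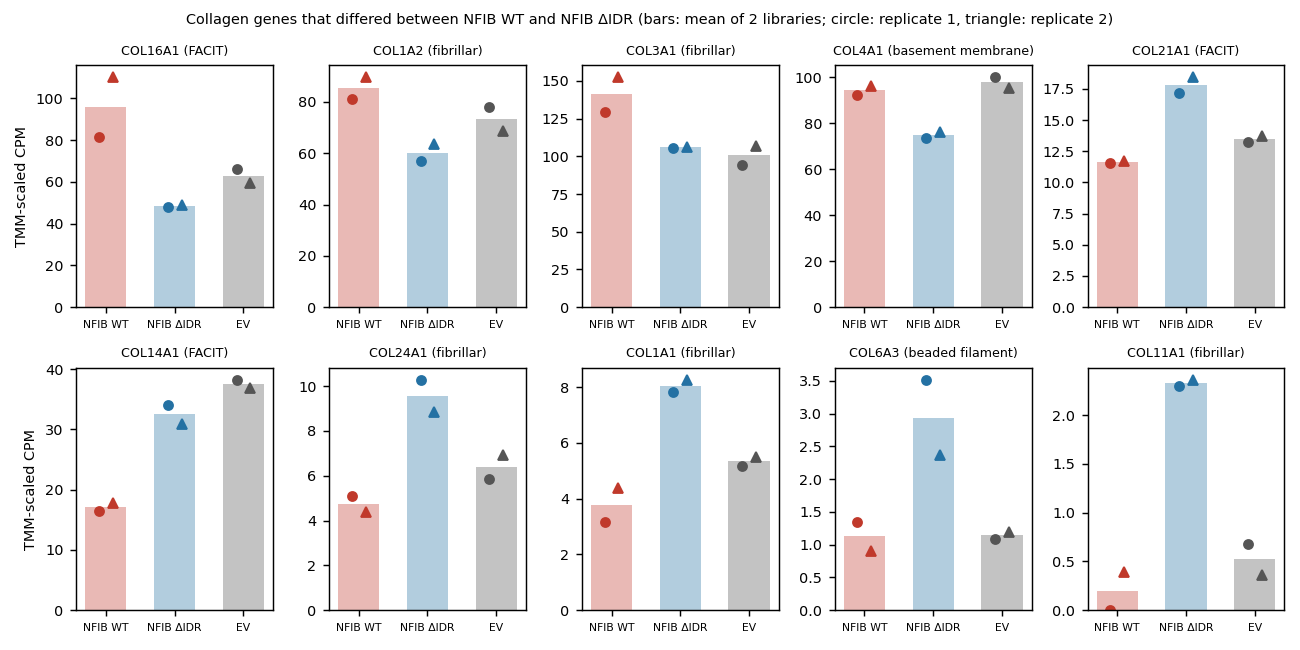
TMM-scaled CPM (vertical axes, from 0, each panel with its own scale) of the 10 collagens called between NFIB WT and NFIB ΔIDR; bars are means of 2 libraries with NFIB WT, NFIB ΔIDR and EV, circles replicate 1 and triangles replicate 2. In each panel the NFIB WT and NFIB ΔIDR libraries do not overlap; COL16A1 has 81.4 and 110.2 CPM in NFIB WT cells and 47.8 and 49.2 CPM in NFIB ΔIDR cells.

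Calls between the constructs changed when single libraries were left out, over all genes as well as among the collagens. Without NFIB ΔIDR replicate 1 none of the 10 passed (adjusted p from 0.0511 to 0.324), and without NFIB ΔIDR replicate 2 only COL14A1 did, where 0.815% and 0.783% of all tested genes were called. In both fits the lone library was taken to vary like the other groups. Without EV replicate 1 or EV replicate 2, and in a fit of both constructs alone, 6 remained, and COL3A1, COL4A1, COL6A3 and COL21A1 were lost, where 5.14%, 5.20% and 5.13% of all tested genes were called. COL6A3 was also lost without NFIB WT replicate 2 (adjusted p = 0.105). DESeq2 called COL16A1, COL3A1, COL1A2 and COL14A1, and 5.41% of all genes it tested. All 10 kept their sign in each of the 15 alternatives, which says little, as these reuse the same libraries and the constructs do not overlap. At a change of 1.5-fold or more with an unadjusted p under 0.05, 8 collagens passed (9.98% of all tested genes did), and COL9A3 stood beside COL16A1 among the 2 that were higher. The libraries of the constructs do not overlap for any of the 10, as they do not for 55.3% of all tested genes.

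Type I collagen is the main fibrillar collagen of bone and skin, and is normally made of 2 chains from COL1A1 and 1 from COL1A2. Its genes went opposite ways. COL1A2 (chromosome 7, 94024207 to 94060539, plus strand) had 81.3 and 89.8 CPM in NFIB WT cells, 56.8 and 63.5 CPM in NFIB ΔIDR cells and 78.1 and 68.8 CPM in EV cells. It was higher in NFIB WT than in NFIB ΔIDR cells (log2 fold change 0.51 with SE 0.11, edgeR adjusted p = 0.017), and the EV libraries lay between the constructs. COL1A1 (chromosome 17, 48261462 to 48278993, minus strand) had 3.15 and 4.38 CPM in NFIB WT cells, 7.85 and 8.27 CPM in NFIB ΔIDR cells and 5.19 and 5.50 CPM in EV cells. It was lower in NFIB WT than in NFIB ΔIDR cells (log2 fold change -1.08, SE 0.23 and adjusted p = 0.0156), and here too the EV libraries lay between. The differences from EV were 0.22 (SE 0.11) for COL1A2 and -0.49 (SE 0.24) for COL1A1 in NFIB WT cells, and -0.29 (SE 0.11) for COL1A2 and 0.59 (SE 0.21) for COL1A1 in NFIB ΔIDR cells, and none of these was called.

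Per kilobase, COL1A2 RNA exceeded COL1A1 RNA in each library, although the protein needs more of the COL1A1 chain. The ratio of COL1A2 to COL1A1 was 28.3 and 22.5 in NFIB WT cells, 7.93 and 8.41 in NFIB ΔIDR cells and 16.5 and 13.7 in EV cells. The 3 groups did not overlap, with EV between the constructs. No test was made on the ratios, and 55.3% of all tested genes do not overlap between the constructs. A ratio within a library does not depend on the scaling between libraries. COL1A1 was counted from 21 to 58 reads per library, so counting error weighs on each ratio. An exon of an unnamed gene on the opposite strand overlaps 59 bases of COL1A1, and whether the counting used strand was not given in the sources used here.

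The promoter of COL1A2 and the stretch between COL4A1 and COL4A2 are shown so that the NFI core can be looked up beside COL1A2 and COL4A1, which were called higher in NFIB WT than in NFIB ΔIDR cells. Both are from hg19 and run 5′ to 3′, and capitals mark the NFI core TTGGC or its reverse complement GCCAA. The COL1A2 stretch, chr7:94023957-94024206 (plus strand), holds the 250 bases before the start of the main annotated transcript. The main transcripts of COL4A1 and COL4A2 start head to head, and the 126 bases between their starts, chr13:110959505-110959630, are given on the plus strand.
COL1A2: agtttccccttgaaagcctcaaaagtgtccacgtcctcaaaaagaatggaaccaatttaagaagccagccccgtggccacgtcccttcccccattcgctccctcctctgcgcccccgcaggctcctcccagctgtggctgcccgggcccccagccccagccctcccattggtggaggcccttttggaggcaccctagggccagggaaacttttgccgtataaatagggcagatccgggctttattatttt
COL4A1/COL4A2: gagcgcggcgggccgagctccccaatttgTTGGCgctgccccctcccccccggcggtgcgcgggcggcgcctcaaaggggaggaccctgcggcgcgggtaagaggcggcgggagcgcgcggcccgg

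The core was searched on both strands. COL1A2 had 0 matches and the stretch between COL4A1 and COL4A2 had 1. Over all members, 18 of 42 promoters held at least 1 core (42.9%), next to 42.2% of 18599 annotated promoters of the same length. The inverted repeat (TTGGC, 5 bases of any kind, GCCAA) was in 0 of 42 and in 0.0376% of all promoters. The CCAAT box, searched as CCAAT on both strands, can share bases with the core, since GCCAAT holds both. It was in 28.6% of the collagen promoters and 33.8% of all, with 2 matches in COL1A2. The TATA box, searched as TATAAA on both strands, was in 19% and 8.44%, and COL1A2 had 1. Matches are letters in a window and not sites of binding.

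The other fibrillar genes fell into an abundant and a scarce set. COL3A1 (chromosome 2, 189839099 to 189877472, plus strand) had 129.6 and 152.6 CPM in NFIB WT cells, 105.7 and 106.4 CPM in NFIB ΔIDR cells and 94.5 and 106.7 CPM in EV cells. It was higher in NFIB WT than in NFIB ΔIDR cells (log2 fold change 0.41 with SE 0.11, edgeR adjusted p = 0.0335), and the NFIB ΔIDR libraries lay within the range of EV. COL5A2, its neighbour on chromosome 2, had 316 and 311 CPM in NFIB WT cells, 310 and 315 CPM in NFIB ΔIDR cells and 286 and 287 CPM in EV cells. The constructs overlapped (log2 fold change 0.00, SE 0.08), and both lay just above EV (0.13 in NFIB WT cells and 0.12 in NFIB ΔIDR cells, SE 0.08 each, adjusted p = 0.493 and 0.506).

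COL5A1, the partner of COL5A2, had 17.2 and 20.3 CPM in NFIB WT cells, 25.4 and 25.4 CPM in NFIB ΔIDR cells and 19.8 and 18.2 CPM in EV cells (NFIB WT against NFIB ΔIDR -0.43 with SE 0.13, edgeR adjusted p = 0.0623). The ratio of COL5A2 to COL5A1 per kilobase was 22.5 and 18.7 in NFIB WT cells, 14.96 and 15.24 in NFIB ΔIDR cells and 17.8 and 19.4 in EV cells, with NFIB ΔIDR lowest in both libraries. Type V protein is most often made of 2 COL5A1 chains and 1 COL5A2 chain, so that here too the chain needed less had more RNA.

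COL24A1, a fibrillar collagen of developing bone and cornea in mice, had 5.10 and 4.38 CPM in NFIB WT cells, 10.3 and 8.86 CPM in NFIB ΔIDR cells and 5.87 and 6.93 CPM in EV cells. It was lower in NFIB WT than in NFIB ΔIDR cells (log2 fold change -1.02 with SE 0.21, edgeR adjusted p = 0.0133), and NFIB WT and EV did not overlap either (-0.44, SE 0.22, not called). COL11A1, which controls fibril width in cartilage, was near the limit of detection, with 0 and 3 counts in NFIB WT cells, 17 and 16 counts in NFIB ΔIDR cells and 5 and 3 counts in EV cells. Its fitted log2 fold change between NFIB WT and NFIB ΔIDR was -3.39 (SE 0.68 and adjusted p = 0.0127). As COL11A1 entered the test only through the NFIB ΔIDR libraries, where it was higher, this call was partly set by the filter. From the counts alone, 3 against 33, the ratio was 0.0892, with a 95% interval from 0.0175 to 0.284 that covers counting error only. COL27A1, a cartilage collagen, had 10.6 and 12.9 CPM in NFIB WT cells, 14.5 and 12.0 CPM in NFIB ΔIDR cells and 16.9 and 15.1 CPM in EV cells, and was not called in any comparison.

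Among the FACIT collagens, COL16A1 had the largest upward difference of all tested collagens between NFIB WT and NFIB ΔIDR. COL16A1 (chromosome 1, 32117864 to 32169920, minus strand), which associates with fibrils and microfibrils in skin and cartilage, had 81.4 and 110.2 CPM in NFIB WT cells, 47.8 and 49.2 CPM in NFIB ΔIDR cells and 66.1 and 59.5 CPM in EV cells. The EV libraries lay between the constructs, and the NFIB WT libraries were far apart from each other. Its log2 fold change was 0.99 (SE 0.14 and edgeR adjusted p = 0.0027) for NFIB WT against NFIB ΔIDR and -0.37 (SE 0.14 and adjusted p = 0.246) for NFIB ΔIDR against EV. The 15 alternatives put its value for NFIB WT against NFIB ΔIDR between 0.75 and 1.19. PEF1-AS1, on the opposite strand, shares 117 exonic bases with COL16A1.

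COL14A1 (chromosome 8, 121072019 to 121385812, plus strand), described above against EV, was called lower with NFIB WT than in both other groups. COL21A1 had 11.5 and 11.7 CPM in NFIB WT cells, 17.2 and 18.5 CPM in NFIB ΔIDR cells and 13.2 and 13.7 CPM in EV cells. It was lower in NFIB WT than in NFIB ΔIDR cells (log2 fold change -0.61 with SE 0.14, edgeR adjusted p = 0.022). EV lay between them, and NFIB WT against EV was not called. COL19A1 was more abundant, with 41.1 and 31.8 CPM in NFIB WT cells, 42.8 and 37.9 CPM in NFIB ΔIDR cells and 37.1 and 29.4 CPM in EV cells. Its libraries overlapped between NFIB WT and NFIB ΔIDR and between NFIB WT and EV. COL9A3, a chain of the cartilage collagen IX, had 7.20 and 10.2 CPM in NFIB WT cells, 6.63 and 4.58 CPM in NFIB ΔIDR cells and 6.69 and 6.69 CPM in EV cells, and COL12A1 stayed between 3.75 and 6.09 CPM, and neither was called.

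**Figure D3:**
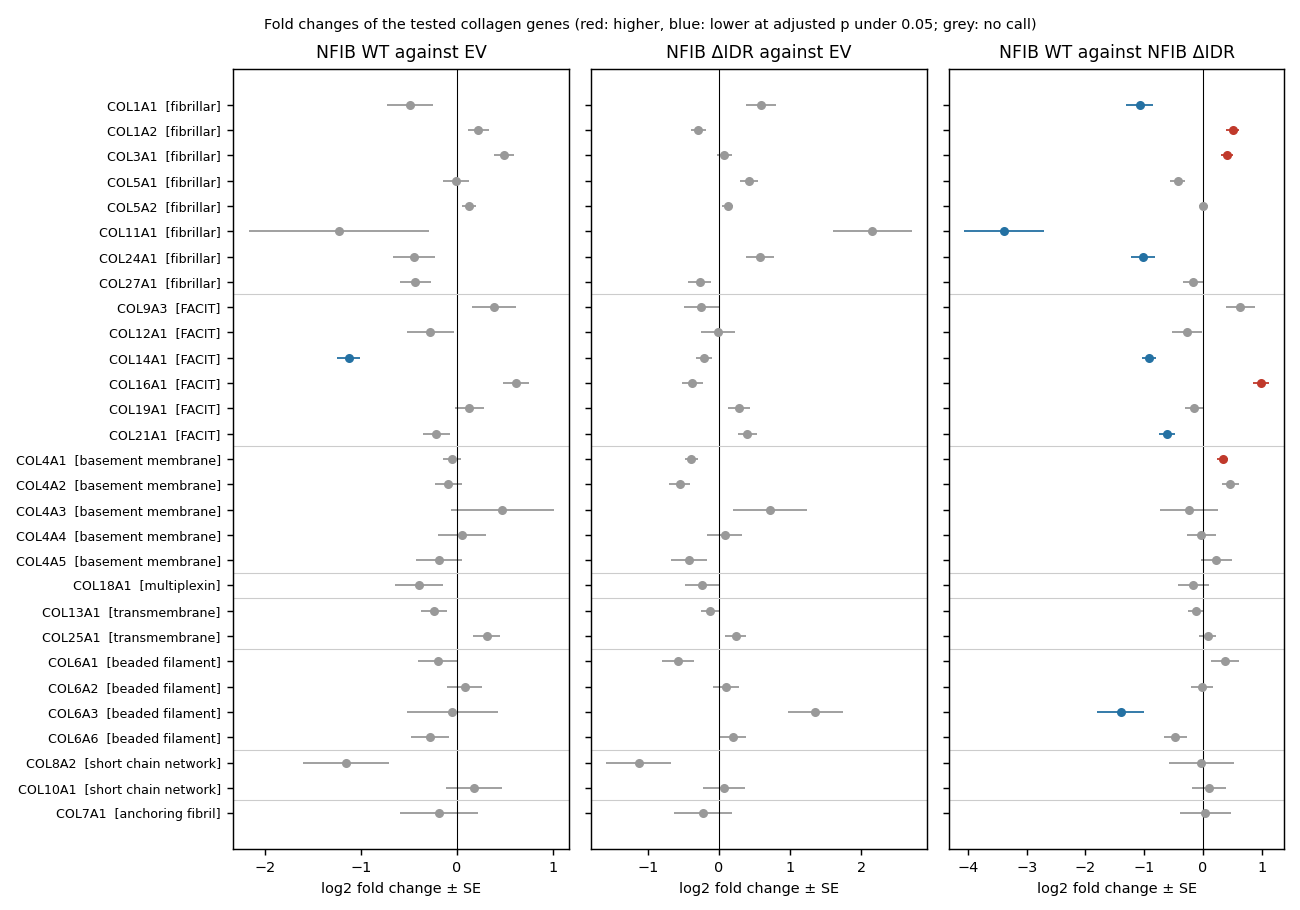
Log2 fold changes with SE (horizontal axes, each panel with its own range) of the 29 tested collagens, grouped by class, for NFIB WT against EV, NFIB ΔIDR against EV and NFIB WT against NFIB ΔIDR; red points are called higher, blue points called lower and grey points not called. COL14A1 is blue in the first panel, no gene is coloured in the second, and 4 are red and 6 blue in the third.

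The basement membrane genes COL4A1 and COL4A2 encode the chains of the common type IV network and have main transcripts that start with 126 bases between them on opposite strands of chromosome 13. COL4A1 had 92.2 and 96.3 CPM in NFIB WT cells, 73.7 and 76.0 CPM in NFIB ΔIDR cells and 100.2 and 95.5 CPM in EV cells. It was higher in NFIB WT than in NFIB ΔIDR cells (log2 fold change 0.33 with SE 0.09, edgeR adjusted p = 0.0433), while NFIB WT and EV overlapped (-0.05, SE 0.09). COL4A2 had 53.7 and 76.2 CPM in NFIB WT cells, 45.7 and 48.9 CPM in NFIB ΔIDR cells and 68.5 and 70.1 CPM in EV cells. For both genes the NFIB ΔIDR libraries lay below all others (NFIB ΔIDR and EV do not overlap for 53.3% of all tested genes), and the differences of NFIB ΔIDR from EV were -0.39 for COL4A1 (SE 0.09 and adjusted p = 0.0902) and -0.55 for COL4A2 (SE 0.15 and adjusted p = 0.116). The call of COL4A1 was also lost when libraries were scaled by their totals alone (adjusted p = 0.0519). COL4A2-AS1 and COL4A2-AS2, on the opposite strand, share 95 exonic bases with COL4A2.

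The ratio of COL4A1 to COL4A2 per kilobase was 1.49 and 1.10 in NFIB WT cells, 1.40 and 1.35 in NFIB ΔIDR cells and 1.27 and 1.18 in EV cells, and NFIB WT overlapped both other groups. The other type IV genes, which replace these chains in kidney and other special basement membranes, were scarce. COL4A5 had 4.19 to 7.51 CPM over the 6 libraries, COL4A4 had 3.94 to 5.01 CPM and COL4A3 had 0.717 to 2.03 CPM, and none was called. COL18A1, a multiplexin whose end can be cut off as endostatin, had 4.65 and 5.15 CPM in NFIB WT cells, 5.95 and 5.02 CPM in NFIB ΔIDR cells and 5.05 and 7.77 CPM in EV cells, with overlap between all groups.

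No transmembrane collagen was called in any of the 3 comparisons. COL13A1, which sits at the neuromuscular junction and other adhesion sites, had 14.7 and 16.6 CPM in NFIB WT cells, 17.0 and 17.0 CPM in NFIB ΔIDR cells and 19.1 and 18.0 CPM in EV cells. It lay in the order EV, NFIB ΔIDR, NFIB WT with no overlap, yet the log2 fold changes were only -0.24 for NFIB WT against EV (SE 0.13 and edgeR adjusted p = 0.457), -0.13 for NFIB ΔIDR against EV and -0.12 for NFIB WT against NFIB ΔIDR. COL25A1, a collagen of neurons, had 23.1 and 20.5 CPM in NFIB WT cells, 22.1 and 19.0 CPM in NFIB ΔIDR cells and 18.7 and 16.4 CPM in EV cells. NFIB WT lay above EV (0.31, SE 0.14 and adjusted p = 0.372) and overlapped NFIB ΔIDR.

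Type VI collagen is assembled from COL6A1, COL6A2 and a longer chain such as COL6A3. COL6A3 had 9 and 7 counts in NFIB WT cells, 26 and 16 counts in NFIB ΔIDR cells and 8 and 10 counts in EV cells. It was lower in NFIB WT than in NFIB ΔIDR cells (log2 fold change -1.40 with SE 0.39, edgeR adjusted p = 0.0463), and NFIB WT and EV overlapped. As COL6A3 entered the test only through the NFIB ΔIDR libraries, where it was higher, this call was partly set by the filter. COL6A2 had 13.3 and 16.9 CPM in NFIB WT cells, 17.3 and 13.4 CPM in NFIB ΔIDR cells and 12.7 and 15.9 CPM in EV cells, with overlap throughout. COL6A1 had 5.40 and 6.95 CPM in NFIB WT cells, 5.28 and 4.28 CPM in NFIB ΔIDR cells and 7.37 and 6.93 CPM in EV cells. COL6A6 had 7.35 and 6.57 CPM in NFIB WT cells, 8.66 and 10.6 CPM in NFIB ΔIDR cells and 9.01 and 7.89 CPM in EV cells, and of these chains COL6A3 alone was called.

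The ratio of COL6A2 to COL6A1 per kilobase was 2.41 and 2.36 in NFIB WT cells, 3.19 and 3.05 in NFIB ΔIDR cells and 1.68 and 2.23 in EV cells, and the 3 groups did not overlap. No test was made on the ratios. Between 2 of the groups, 42.9% to 55.3% of all tested genes do not overlap either. That of COL6A2 to COL6A3 was 24.4 and 46.1 in NFIB WT cells, 12.1 and 14.0 in NFIB ΔIDR cells and 28.6 and 32.8 in EV cells. NFIB ΔIDR was lowest in the second ratio and highest in the first. COL6A3 entered the test only through the NFIB ΔIDR libraries, where it was higher, so the second ratio partly repeats that selection. With 7 to 26 counts of COL6A3 and 29 to 58 of COL6A1 per library, counting error weighs on both ratios. The short chain collagen COL8A2, of the corneal basement membrane, had 4 and 7 counts in NFIB WT cells, 5 and 6 counts in NFIB ΔIDR cells and 11 and 16 counts in EV cells, and was not called. COL10A1, which marks hypertrophic chondrocytes, had 4.20 and 3.73 CPM in NFIB WT cells, 3.79 and 3.54 CPM in NFIB ΔIDR cells and 2.59 and 4.30 CPM in EV cells. COL7A1, the anchoring fibril collagen of skin, had 1.20 and 1.67 CPM in NFIB WT cells, 1.62 and 1.18 CPM in NFIB ΔIDR cells and 1.36 and 1.91 CPM in EV cells, and both genes overlapped between all groups.

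**Figure D4:**
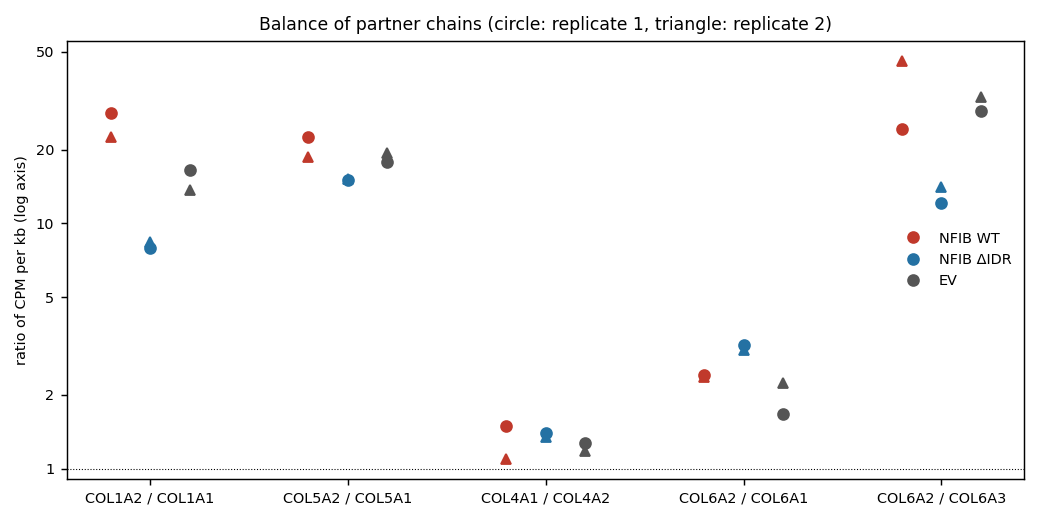
Ratio of partner chains in CPM per kb of gene model (vertical axis, log scale) for 5 pairs of collagen genes with NFIB WT, NFIB ΔIDR and EV; circles are replicate 1 and triangles replicate 2. The ratio of COL1A2 to COL1A1 is 28.3 and 22.5 in NFIB WT cells, 7.93 and 8.41 in NFIB ΔIDR cells and 16.5 and 13.7 in EV cells, and that of COL4A1 to COL4A2 stays between 1.10 and 1.49.

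Collagen chains are hydroxylated and glycosylated in the endoplasmic reticulum before they fold. With NFIB WT against NFIB ΔIDR, 4 of 14 tested genes of hydroxylation and glycosylation were higher and 0 lower, next to 5.52% and 5.19% of all tested genes. Against EV 0 of 14 were called with either construct, next to 0.615% of all genes with NFIB WT and 0.652% with NFIB ΔIDR. P4HA2, a catalytic subunit of prolyl 4-hydroxylase, whose product steadies the helix, had 4.35 and 5.41 CPM in NFIB WT cells, 1.35 and 1.03 CPM in NFIB ΔIDR cells and 2.18 and 1.67 CPM in EV cells. NFIB WT lay above all others (log2 fold change against NFIB ΔIDR 2.02 with SE 0.33, edgeR adjusted p = 0.00508; against EV 1.35, SE 0.30 and adjusted p = 0.0767). CRTAP and P3H3, of the prolyl 3-hydroxylase family and its partners, were 0.47 (SE 0.11, with adjusted p = 0.0278) and 0.74 (SE 0.21, with adjusted p = 0.0478) higher on the log2 scale in NFIB WT than in NFIB ΔIDR cells. COLGALT1, which adds galactose to hydroxylysine, was 0.33 higher (SE 0.09, with adjusted p = 0.0475).

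Of 10 tested genes of folding and export, 1 was higher in NFIB WT than in NFIB ΔIDR cells and 0 were lower, which is close to the 10.7% of all tested genes that were called. This was SEC23A, a coat protein of the vesicles that carry procollagen, with 220.2 and 172.1 CPM in NFIB WT cells, 152.7 and 142.2 CPM in NFIB ΔIDR cells and 161.7 and 155.8 CPM in EV cells (log2 fold change 0.41 with SE 0.12, edgeR adjusted p = 0.0463). SERPINH1, the collagen chaperone HSP47, had 147.0 and 169.2 CPM in NFIB WT cells, 127.7 and 131.7 CPM in NFIB ΔIDR cells and 112.9 and 130.7 CPM in EV cells, and was not called. Of 5 tested genes of propeptide cleavage 0 were called, nor were any of 8 regulators of cartilage and bone formation, next to the same 10.7%. Among these regulators SOX9 and RUNX2 had log2 fold changes of 0.51 and -0.54 for NFIB WT against NFIB ΔIDR (adjusted p = 0.179 and 0.122).

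Of 5 tested collagen receptors, 1 was called, next to 10.7% of all tested genes. DDR2, a receptor tyrosine kinase for fibrillar collagen, was higher in NFIB WT than in NFIB ΔIDR cells. It had 330.4 and 318.5 CPM in NFIB WT cells, 235.1 and 246.5 CPM in NFIB ΔIDR cells and 262.1 and 259.5 CPM in EV cells (log2 fold change 0.43 with SE 0.08, edgeR adjusted p = 0.00849). None of the tested genes of these 5 lists passed with NFIB WT against EV or with NFIB ΔIDR against EV. The 6 calls between the constructs were all lost without either NFIB ΔIDR library, and 2 remained without either EV library. P4HA2 and DDR2 each passed in 13 of 15 alternatives.

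For several lists of cell type markers the summed levels of some groups did not overlap, and no test was made on these sums. For single genes, libraries do not overlap for 42.9% of all tested genes with NFIB WT against EV. The share is 53.3% with NFIB ΔIDR against EV and 55.3% between the constructs. Of the 10 listed Ewing sarcoma markers CD99 was not analysed here, nor were KRT5 of the epithelial and HBB of the blood list. The other 9 Ewing sarcoma markers were tested, and their summed level was 2799 to 2805 CPM in NFIB WT cells, 2303 to 2332 CPM in NFIB ΔIDR cells and 2472 to 2490 CPM in EV cells. CCND1 made up more than any other marker of this sum, with 1606 and 1553 CPM in NFIB WT cells, 1202 and 1163 CPM in NFIB ΔIDR cells and 1261 and 1254 CPM in EV cells. CCND1, FCGRT and LIPI were called higher and STEAP1 lower in NFIB WT than in NFIB ΔIDR cells. These are 3 and 1 of 9, next to 5.52% and 5.19% of all tested genes. Against EV, LIPI was called higher in NFIB WT cells (log2 fold change 0.62 with SE 0.11, edgeR adjusted p = 0.0376). This is 1 of 9, where 0.615% of all tested genes were called. Without a call, the mean levels of CCND1, FCGRT, NKX2-2 and XG lay above EV in NFIB WT cells, and those of STEAP1, PRKCB, NR0B1 and VRK1 below it. Of 8 fibroblast markers, which hold no collagen, 7 were tested and 1 had under 10 counts over the libraries, and their sum was 349.9 to 370.2 CPM in NFIB WT cells, 235.5 to 235.8 CPM in NFIB ΔIDR cells and 261 to 273 CPM in EV cells. LUM, DCN and FAP were called higher and PDGFRA lower in NFIB WT than in NFIB ΔIDR cells (3 and 1 of 7, next to 5.52% and 5.19% of all tested genes). Against EV, DCN (log2 fold change 0.74, SE 0.09 and edgeR adjusted p = 0.00608) and FAP (0.69, SE 0.11 and adjusted p = 0.0253) were called higher in NFIB WT cells. These are 2 of 7, where 0.615% of all tested genes were called. The mean levels of LUM and S100A4 lay above EV in NFIB WT cells without a call (LUM 0.59, SE 0.11 and edgeR adjusted p = 0.0508). Those of PDGFRA, PDGFRB and THY1 lay below it, also without a call. Of 7 osteoblast markers 2 were tested and 5 had under 10 counts, and the sum, most of it from ALPL, was 76.2 to 86.8 CPM in NFIB WT cells, 52.0 to 54.3 CPM in NFIB ΔIDR cells and 66.7 to 72.8 CPM in EV cells. ALPL was called higher in NFIB WT than in NFIB ΔIDR cells (1 of 2 tested, edgeR adjusted p = 0.00285), next to 5.52% of all tested genes. RUNX2, the other tested marker, went the other way without a call (log2 fold change -0.54, edgeR adjusted p = 0.122). The epithelial sum, most of it from KRT18, was 185 to 264 CPM in NFIB WT cells, 293 to 340 CPM in NFIB ΔIDR cells and 209.8 to 247 CPM in EV cells. Of 3 tested epithelial markers, KRT8 was called, lower in NFIB WT than in NFIB ΔIDR cells, next to 5.19% of all tested genes. The sum of blood markers, nearly all of it from PTPRC, was 252 to 276 CPM in NFIB WT cells, 284 to 315 CPM in NFIB ΔIDR cells and 258.7 to 259.1 CPM in EV cells. NFIB ΔIDR was highest in both of these sums. The chondrocyte sum (14.6 to 19.8, 16.1 to 17.7 and 14.1 to 17.9 CPM, in the same order) overlapped between all groups. The endothelial sum was 1.93 to 3.90 CPM in NFIB WT cells, 3.65 to 3.84 CPM in NFIB ΔIDR cells and 3.28 to 3.58 CPM in EV cells, and NFIB WT overlapped both others. No analysed marker was at 0 in all libraries, and the part of these genes in the collagen differences was not tested. In bulk RNA, fewer cells of a kind and less RNA per cell cannot be told apart.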

How the data were processed

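The 6 RNA-seq libraries of SKNMC cells, 2 per group, were made from total RNA with the CORALL kit and read on a NextSeq 500. Per the labels, the authors used CASAVA 2.19, STAR 2.4.0h on hg19 and featureCounts, and the counts they deposited are raw, with a value for each gene in each library. Strand setting, multi-mapping and use of molecular identifiers: not given in the sources used here.

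Genes were kept with filterByExpr (count of at least 10, total of at least 15). TMM scaling and glmQLFTest of edgeR 4.0.16 in R 4.3.3 followed, with all 6 libraries in the same fit and 3 contrasts, and Benjamini-Hochberg adjustment over 13501 genes. SE was taken as the log2 fold change divided by the square root of F. The common biological coefficient of variation was 0.0776. Library totals ranged from 6664231 to 8465572 counts, and intervals from counts cover counting error only.

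Alternatives were DESeq2 1.42.0, RLE, upper quartile and total count scaling, no filter, a filter at 1 CPM in 2 libraries, fits restricted to the 2 groups compared, robust estimation, a replicate block and leaving out each library. For the 5 lists of synthesis, export, cleavage, receptors and regulators they were added after seeing the data. The collagen classes, marker lists, other lists and the rule for named genes were chosen with earlier results of these data known. The rule took each collagen called in any contrast, the 2 most abundant of each class, the one with the smallest p of each class, and called members of the other lists up to 4. Other genes named were chosen after their values were seen. Promoters are the 250 bases before the start of the MANE or canonical transcript of GENCODE on GRCh37 (hg19), which also gave gene positions. Some promoter sequences are not reported here. The steps were run on simulated data with the same spread in all groups, which does not cover the wider spread of the NFIB WT pair. Figures were drawn with matplotlib 3.10.9.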

Additional observations from a re-analysis of the deposited data

How the results depend on the processing

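Genes called with NFIB WT against EV (83 as reported) numbered 541 without the filter, 13 in a fit of these groups alone and 188 with the replicate block, and 9 to 3051 when a library was left out. The collagens among them (1) numbered 2 with DESeq2, 3 without the filter and 3 with the block, and 0 to 5 when a library was left out, and those past fold 1.5 (3) numbered 1 to 4. With NFIB ΔIDR against EV, 88 genes became 550 without the filter, 1883 in the fit of 2 groups and 241 with the block, and 4 to 1853 when a library was left out. Its collagens (0) became 4 without the filter, 9 in the fit of 2 groups and 1 with the block (COL4A2), and 0 to 9 when a library was left out, and those past fold 1.5 (4) became 1 with DESeq2 and 2 to 5 when a library was left out. With NFIB WT against NFIB ΔIDR, 1446 genes became 725 with DESeq2, 2280 without the filter and 680 in the fit of 2 groups, and 109 to 4405 when a library was left out. Its collagens (10) became 4 with DESeq2, 6 in the fit of 2 groups, and 0 to 13 when a library was left out. The 5 lists of synthesis, export, cleavage, receptors and regulators had 0 calls with NFIB WT against EV, but 3 without the filter and 0 to 14 when a library was left out; 0 in NFIB ΔIDR cells against EV, but 1 without the filter, 2 in the fit of 2 groups and 0 to 2 when a library was left out; and 6 in NFIB WT cells against NFIB ΔIDR, but 3 with DESeq2, 11 without the filter, 2 in the fit of 2 groups, 10 with the block and 0 to 16 when a library was left out. The cause of these shifts was not tested. With library totals as scaling, the collagen sum with NFIB ΔIDR was 914 CPM and the fibrillar sum with EV was 504 CPM.

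Deviations between replicates were weakly correlated across the groups (0.0156, 0.153 and 0.0539). With the replicate block, genes called rose to 188 with NFIB WT against EV, 241 with NFIB ΔIDR against EV and 2092 between the constructs. Whether replicate numbers pair the libraries is thus not settled. The block kept all 10 collagens called between the constructs and added COL4A2. Some uncalled genes changed sign. COL5A2 for NFIB WT against NFIB ΔIDR was -0.00683 with upper quartile scaling and -0.0135 with library totals, and -0.00847 to 0.0174 when a library was left out. When a library was left out, log2 fold changes of NFIB WT against EV ranged from -0.0551 to 0.32 for COL19A1, -0.365 to 0.14 for COL4A2, -0.10 to 0.26 for COL6A2, -0.34 to 0.24 for COL6A3, -0.12 to 0.61 for COL10A1 and -0.455 to 0.0915 for COL7A1. Those of NFIB ΔIDR against EV ranged from -0.00783 to 0.17 for COL3A1, -0.495 to 0.12 for COL18A1, -0.10 to 0.28 for COL6A2, -0.23 to 0.50 for COL10A1 and -0.48 to 0.0464 for COL7A1. Those of NFIB WT against NFIB ΔIDR ranged from -0.34 to 0.0273 for COL19A1, -0.0178 to 0.19 for COL25A1, -0.21 to 0.18 for COL6A2, -0.36 to 0.21 for COL8A2 and -0.23 to 0.30 for COL7A1. Depth limits the scarce chains, such as COL11A1 and COL6A3, which had under 30 counts in each library.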

Other observations

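COL4A3BP, whose symbol begins like that of a collagen, encodes a ceramide transporter and was left out of the members. It had 54.7 and 54.7 CPM in NFIB WT cells, 65.2 and 52.7 CPM in NFIB ΔIDR cells and 54.6 and 51.3 CPM in EV cells. The type VI pseudogenes COL6A4P1 and COL6A4P2 had 3 and 6 counts over the 6 libraries, and the antisense genes COL4A2-AS1 and COL4A2-AS2 had 9 and 14.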
